A study of Mus musculus with 6 samples.

Results

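The alanine tRNA genes were the features of the tRNA class whose names begin with tRNA-Ala, and they numbered 111 among 869 tRNA genes and 1753368 annotated features with a count above 0 in at least 1 library. Counts are fractional, and 24 of the 111 had under 1 read over the 6 libraries. The names of 38 genes carry an anticodon, which was AGC in 17, CGC in 10 and TGC in 11. The other 73 genes carry a number in place of the anticodon. The rule uses names and no measured value.

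Reads came from eCLIP of mouse Gtsf1, or Asterix, which has zinc fingers and is needed for silencing of transposons by piRNAs. In eCLIP, ultraviolet light joins RNA to the proteins it touches, the protein is purified, and the attached RNA fragments are sequenced beside an input taken from the same lysate. All 6 libraries came from P19 cells, a mouse embryonal carcinoma line, transiently transfected with a pEF vector in which the EF-1alpha promoter drives Gtsf1 carrying TEV-Strep at its C terminus. The groups were the crosslinked pull-down (n = 2, irradiated at 254 nm), the crosslinked input (n = 2), the non-crosslinked pull-down (n = 1) and the non-crosslinked input (n = 1). All groups share the transfected, tagged protein, and libraries of untransfected cells were not analysed here. The labels do not say whether the replicates came from separate cultures, so p-values measure only the spread between these libraries, which may be technical.

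Alanine tRNAs read the alanine codons, which begin with GC. The AGC tRNA has its first anticodon base changed from adenosine to inosine by the Adat2-Adat3 deaminase and then reads codons ending in U, C or A, whereas the CGC tRNA reads the codon ending in G and the TGC tRNA reads those ending in A or G. Alanyl-tRNA synthetase does not read the anticodon and recognises a G:U pair in the acceptor stem, so the same enzyme charges all of these isoacceptors. tRNA genes are transcribed by RNA polymerase III, and many exist in several copies with the same mature sequence. In the names, the number after the anticodon stands for a distinct transcript sequence and the last number for a copy of its gene.

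RefSeq lists 33 nuclear alanine tRNA genes of 430 tRNA genes on GRCm38.p6, the assembly that UCSC calls mm10. Of these, 13 have the anticodon AGC, 9 CGC and 11 TGC, and all are 72 to 73 bases long, so their lengths are nearly equal when RPM values of single genes are compared. A cluster of 12 genes lies on chr13:21222586-23438768 and another of 12 genes, none of them AGC, on chrX:136357602-136590436. The remaining 9 lie on 6 other chromosomes. The names in the files could not be paired with these entries, so single genes are given below without coordinates.

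The libraries held 13168593 to 18418166 reads, and 1 read was worth 0.0543 to 0.0759 RPM (reads scaled by the library total). Reads without annotation made up 6.99 to 8.86% of the inputs and 12.7 to 14.4% of the pull-downs, crosslinked or not. With these reads counted in the library sizes, the log2 ratio of crosslinked pull-down over input was 2.72 for the alanine sum (edgeR, adjusted p = 0.0133). Without them it was 2.82. Of the alanine genes with a mean of at least 1 RPM in the crosslinked inputs, 9 were called higher with these reads and 8 without. The shares of all features called higher were 6.42 and 6.41%. Exons of the embryonal carcinoma genes Pou5f1 and Lin28a had 23.2 to 35.4 and 12.3 to 26.6 RPM in the 6 libraries. The 8 embryonal carcinoma markers summed to 69.6 to 89.0 RPM in the inputs and 45.6 to 62.2 RPM in the pull-downs, and Nanog reached at most 0.687 RPM. The 8 markers of differentiated cells summed to 2.33 to 2.97 RPM in the inputs and 4.04 to 6.91 RPM in the pull-downs, with Afp at 0 in 5 libraries and Sox17 and Myog at 0 in all 3 inputs. Tubb3 gave most of the input sum, with 2.07 to 2.37 RPM in the inputs and 1.28 to 2.35 RPM in the pull-downs. The endoderm factors Gata6 and Gata4 had at most 0.615 and 0.0611 RPM in the inputs, against 2.27 to 3.13 and 0.334 to 0.661 RPM in the pull-downs, and their part in the tRNA results was not tested. Replicates were distinct libraries. Over the 16 alanine genes that were tested, chi-square per degree of freedom measured the mix of genes within a pair, with the gap in total level removed. It was 2.37 for the pair of inputs and 9.58 for the pair of pull-downs, where counting error alone gives about 1. In level, pull-down 2 held 2.16 to 6.59 times as much of each gene as pull-down 1.

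Reads of alanine tRNAs were more frequent in the crosslinked pull-downs than in the inputs, and each of the 3 anticodon sums rose, with the highest ratio for AGC. Summed over all 111 genes, crosslinked inputs had 194.9 and 209.4 RPM and crosslinked pull-downs 645 and 2019 RPM, so that both pull-downs lay above both inputs and pull-down 2 held 3.13 times as much as pull-down 1. The non-crosslinked pair had 186 RPM in its input and 96.4 RPM in its pull-down, so without crosslinking the pull-down was the lower of the pair. Crosslinked group means were 202 ± 10.3 RPM in the inputs and 1332 ± 972 RPM in the pull-downs (SD, n = 2 each), a ratio of 6.59. By edgeR's quasi-likelihood test the log2 ratio was 2.82 ± 0.52 (± is the standard error beside each edgeR log2 ratio), at adjusted p = 0.02 (Benjamini-Hochberg over the whole table). Of all features in that fit, 6.0% were called higher at an adjusted p under 0.05. The log2 ratio was 1.75 without pull-down 2 and 3.42 without pull-down 1. With a pull-down left out the remaining one is assumed to vary like the inputs, so the p-values of such fits do not reflect the spread between pull-downs and are not given for the sums. Fewer reads from other RNAs and more reads from tRNA cannot be told apart on a scale relative to the library total.

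For the AGC sum, crosslinked inputs had 19.5 and 15.5 RPM and crosslinked pull-downs 200.9 and 641 RPM. Its non-crosslinked pair had 14.6 RPM (input) and 17.4 RPM (pull-down). The crosslinked groups did not overlap, and the 2 non-crosslinked values lay close to the crosslinked inputs. Group means were 17.5 ± 2.77 and 421 ± 311 RPM (SD, n = 2 each), a ratio of 24.1, against 1.19 in the non-crosslinked pair. The edgeR log2 ratio was 4.69 ± 0.58 (adjusted p = 0.00346), and it was 3.60 without pull-down 2 and 5.3 without pull-down 1. In the fit with sums per anticodon, 6.06% of all features were called higher.

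For the CGC sum, crosslinked inputs had 69.2 and 80.2 RPM and crosslinked pull-downs 175 and 528 RPM, and the non-crosslinked pair 70.3 RPM (input) and 31.7 RPM (pull-down). For the TGC sum, crosslinked inputs had 105 and 113 RPM and crosslinked pull-downs 266 and 846 RPM, and the non-crosslinked pair 101 RPM (input) and 47.1 RPM (pull-down). Both sums were therefore above the inputs in each crosslinked pull-down and below the input without crosslinking. The edgeR log2 ratio was 2.33 ± 0.50 for CGC (adjusted p = 0.0352) and 2.45 ± 0.52 for TGC (adjusted p = 0.0341). These values were 1.31 and 1.36 without pull-down 2 and 2.92 and 3.06 without pull-down 1. The non-crosslinked ratios were 0.45 for CGC and 0.47 for TGC.

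The division of reads between CGC and TGC is uncertain. Genes CGC-1-1, CGC-1-2 and TGC-3-1 had counts that differed by at most 4.84% of their mean in any library, and 201 of the 267 alanine values above 0 were not whole numbers (beyond 0.001), as arises when a read that matches several genes is divided among them. With both anticodons joined in 1 sum, an alternative chosen after seeing the data, the log2 ratio was 2.40 ± 0.51 (edgeR, adjusted p = 0.0346).

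The make-up of the alanine reads was compared within each library, which removes the total amount of tRNA. AGC genes gave 9.98% of the alanine tRNA reads in crosslinked input 1 (95% Wilson interval 9.03 to 11.0%) and 7.42% in input 2 (6.63 to 8.28%). They gave 31.1% in crosslinked pull-down 1 (30.3 to 32.0%) and 31.7% in pull-down 2 (31.2 to 32.3%). The 2 pull-downs thus held nearly the same share, although their alanine sums differed by 3.13 times. The non-crosslinked input had an AGC share of 7.85% (6.90 to 8.96%) and its pull-down one of 18.1% (16.03 to 20.3%), so it was also the higher of that pair. These intervals reflect counting error alone, because PCR copies are not independent molecules.

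Shares of the other anticodons were lower in the pull-downs. CGC genes gave 35.5 and 38.3% of the alanine reads in the crosslinked inputs but 27.2 and 26.1% in the pull-downs, and TGC genes gave 54.0 and 53.9% in these inputs and 41.2 and 41.9% in the pull-downs. AGC reads numbered 0.111 and 0.0804 for each CGC or TGC read in the crosslinked inputs, 0.455 and 0.467 in the pull-downs, and 0.0853 (input) and 0.221 (pull-down) without crosslinking. The log2 of this ratio differed by 2.28 between crosslinked pull-downs and inputs and by 1.37 in the non-crosslinked pair. The two-sided exact permutation test of the crosslinked libraries gave p = 0.333 for each of the 3 shares and for the log2 ratio, which is the smallest value that 2 libraries against 2 allow.

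**Figure D1:**
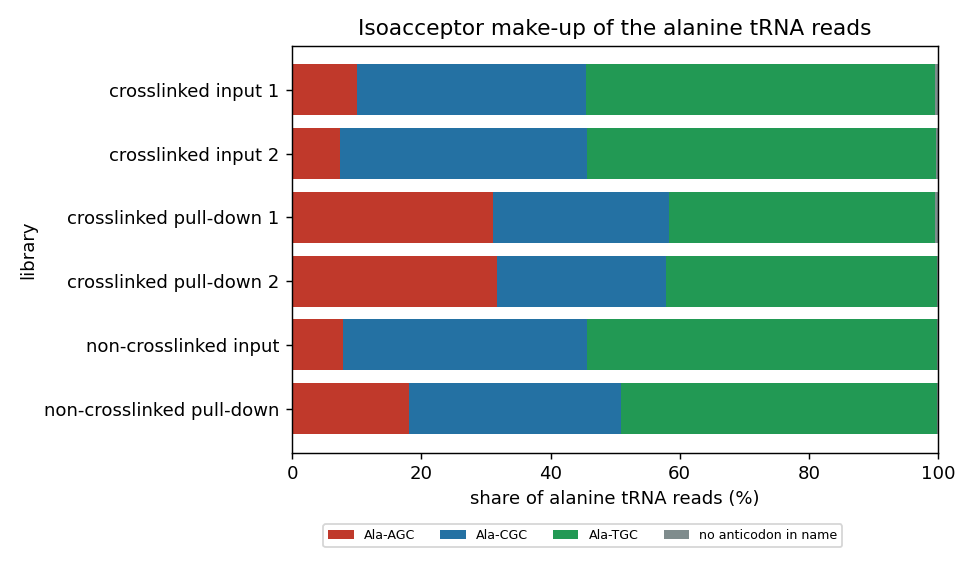
Share of alanine tRNA reads (percent, horizontal axis) by anticodon in each of the 6 libraries, 1 stacked bar per library. AGC (red) takes 7.42 to 9.98% in the 3 inputs, 31.1 and 31.7% in crosslinked pull-downs and 18.1% without crosslinking.

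Single genes were tested where their mean over the 4 crosslinked libraries was at least 1 RPM. This left 16 of the 111 genes, which were 9 AGC, 3 CGC, 4 TGC and none of the number-named genes. In 10 of the 16 the mean of the inputs also reached 1 RPM. The other 6 passed through their pull-down reads alone and so had to differ between the groups. Of the 10, 8 were called higher, against 6.41% of all features tested. Counting the 6 as well, 14 of 16 were called, which adds nothing to the 8. Without crosslinked input 1, edgeR called 4 of the 10, against 7.46% of all features in that fit, and without each of the other crosslinked libraries it called 9 or 10. None of the 10 was called lower by edgeR, against 3.47% of all features, all 10 had p under 0.05 before adjustment with a ratio above 0, and DESeq2 called none lower. The median log2 ratio was 3.03 over these 10 genes (2.10 to 5.07) and -0.21 over all features tested (-0.01 with TMM factors, which call 2741 features higher and 635 lower in place of 2556 and 1384). With TMM factors 5 of the 10 were called, against 6.87% of all features, since CGC-1-1, CGC-1-2 and TGC-3-1 had adjusted p of 0.055, 0.0516 and 0.0554 (edgeR). In each of these 10 both pull-downs exceeded both inputs, as in 10.8% of all features tested, and pull-down 2 held 2.56 to 6.59 times as much as pull-down 1.

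Gene AGC-3-1 had the highest mean level of all alanine tRNA genes in the crosslinked pull-downs. Crosslinked inputs had 10.8 and 8.44 RPM of it and crosslinked pull-downs 135 and 469 RPM, against 7.21 RPM (input) and 6.99 RPM (pull-down) without crosslinking. The non-crosslinked pull-down thus lay close to its input, whereas the 2 crosslinked pull-downs stood far above theirs. Its edgeR log2 ratio was 5.07 ± 0.64 (adjusted p = 0.00424), and it was 3.88 without pull-down 2 and 5.71 without pull-down 1. This gene alone gave 5.56 and 4.03% of all alanine reads in the crosslinked inputs but 20.9 and 23.2% in the pull-downs. Within the AGC reads its share was 55.7 and 54.4% in the inputs and 67.0 and 73.2% in the pull-downs, and without crosslinking it was 49.4% (input) and 40.2% (pull-down). The exact permutation test again gave its smallest p of 0.333 for these shares.

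The 4 genes that followed AGC-3-1 in pull-down level all had CGC or TGC anticodons. For TGC-2-1, crosslinked inputs had 47.7 and 47.1 RPM and crosslinked pull-downs 91.5 and 288 RPM, against 40.6 RPM (input) and 15.5 RPM (pull-down) without crosslinking. Its log2 ratio of 2.10 ± 0.51 was the lowest of the 16 and did not pass the test (edgeR, adjusted p = 0.0567). The log2 ratio was 1.03 without pull-down 2 and 2.71 without pull-down 1. It passed with either pull-down or input 2 left out (adjusted p = 0.0184, 0.00011 and 0.0447), where the lone library is assumed to vary like the other group.

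CGC-1-1 stood for 3 genes with nearly the same counts. Crosslinked inputs had 34.6 and 40.1 RPM of it and crosslinked pull-downs 80.6 and 246 RPM, against 34.7 RPM (input) and 14.8 RPM (pull-down) without crosslinking. The log2 ratios of CGC-1-1, CGC-1-2 and TGC-3-1 were 2.22, 2.30 and 2.22 with adjusted p of 0.0452, 0.0423 and 0.0455 (edgeR). They were 1.19, 1.25 and 1.18 without pull-down 2, and 2.82, 2.90 and 2.82 without pull-down 1. All 3 calls were lost when crosslinked input 1 was left out (adjusted p = 0.0846, 0.0772 and 0.0852), and they were made in 9 of 15 other settings each. These 4 genes and AGC-3-1 together gave 83.2 and 84.0% of alanine reads in crosslinked inputs and 73.0 and 74.6% in crosslinked pull-downs.

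The highest ratios belonged to genes with hardly any input reads. For AGC-12-1, crosslinked inputs had 0.333 and 1.33 reads and crosslinked pull-downs 48.0 and 112 reads, against 0 (input) and 0.810 (pull-down) without crosslinking. Its pooled ratio, the reads of both pull-downs over those of both inputs per library total, was 89.9 with an exact 95% counting interval of 24.5 to 748. For CGC-2-1, each crosslinked input had 3.67 reads and crosslinked pull-downs 150.0 and 325 reads, against 5.5 (input) and 15.1 (pull-down) without crosslinking. Its pooled ratio was 76.2 (36.7 to 191) beside 4.34 for CGC-1-1 and 4.57 for CGC-1-2. These intervals leave out the spread between the pull-downs. It also had the highest log2(RPM + 1) ratio of the non-crosslinked pair among the 16 genes, 0.63.

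For AGC-4-2, crosslinked inputs had 2.83 and 1.5 reads and crosslinked pull-downs 89.3 and 197 reads, against 0 (input) and 4.98 (pull-down) without crosslinking. Its pooled ratio was 80.6 with a counting interval of 31.1 to 298. For AGC-6-1, crosslinked inputs had 3.5 and 1.17 reads and crosslinked pull-downs 83.3 and 177 reads, against 0.5 (input) and 4.17 (pull-down) without crosslinking. Its pooled ratio was 58.4 (24.7 to 181). In these genes the pull-downs stood far above the inputs, and the wide intervals show how little the inputs fix the ratio. All 4 genes entered the fit through their pull-down reads alone, so their ratios are given as a description without a test.

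Among the remaining tested genes, AGC-2-1 and AGC-2-2 had counts that differed by at most 0.5 reads in any library, and both had pooled ratios of 11.9. For both, crosslinked inputs had 3.09 and 2.84 RPM and crosslinked pull-downs 19.8 and 50.9 RPM, against 3.18 RPM (input) and 4.12 RPM (pull-down) without crosslinking. Their log2 ratio of 3.67 (edgeR, adjusted p = 0.0049) was 2.82 on leaving out pull-down 2 and 4.21 on leaving out pull-down 1. For TGC-1-1, crosslinked inputs had 6.41 and 8.82 RPM and crosslinked pull-downs 25.7 and 114 RPM, and its log2 ratio of 3.29 (edgeR, adjusted p = 0.0333) was 1.83 without pull-down 2, 4.00 without pull-down 1 and not called without input 1 (adjusted p = 0.0541). For TGC-4-1, crosslinked inputs had 16.4 and 16.7 RPM and crosslinked pull-downs 64.7 and 190 RPM, and its log2 ratio of 3.04 (edgeR, adjusted p = 0.0140) was 2.04 without pull-down 2, and leaving out pull-down 1 gave 3.62. For AGC-1-1, crosslinked inputs had 1.46 and 0.955 RPM and crosslinked pull-downs 2.47 and 16.3 RPM, against 0.966 RPM (input) and 0.532 RPM (pull-down) without crosslinking. That gap of 6.59 times between the pull-downs was the widest of the 16, and its log2 ratio of 3.02 ± 0.89 did not pass the test (edgeR, adjusted p = 0.0993). Leaving out pull-down 2 gave 1.09, and leaving out pull-down 1 gave 3.83.

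**Figure D2:**
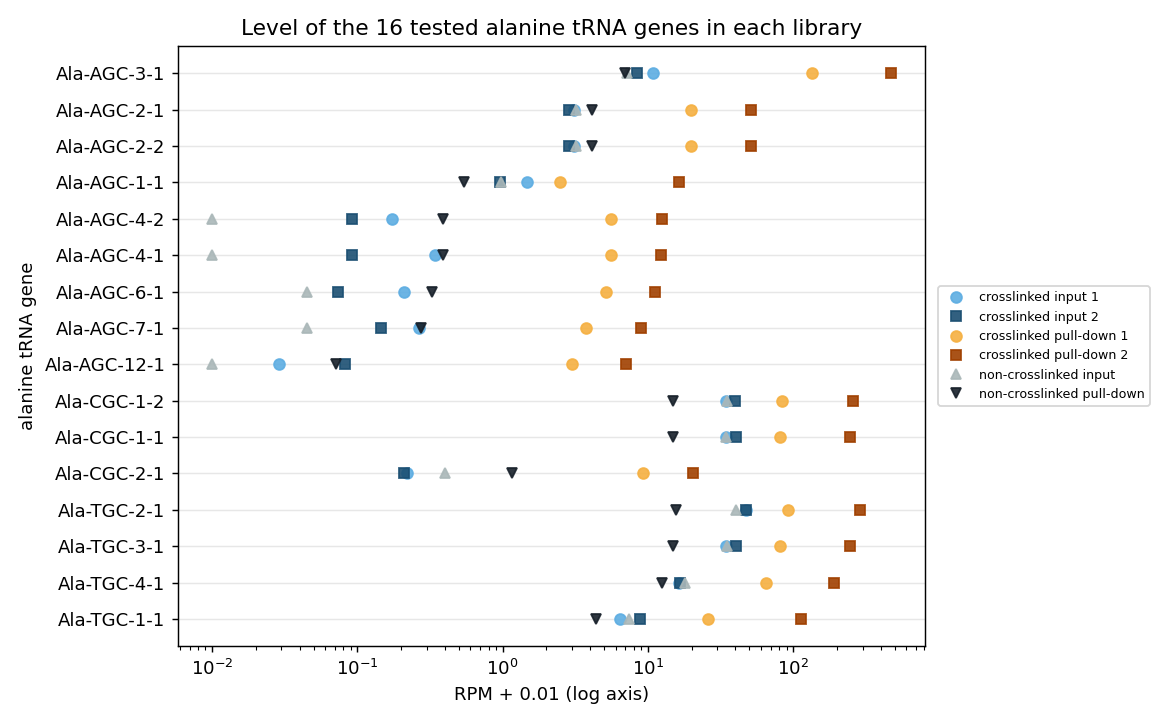
Level of each of the 16 tested alanine tRNA genes in the 6 libraries, as RPM + 0.01 on a log axis; each point is 1 library. The crosslinked pull-downs (orange and brown) lie to the right of both crosslinked inputs (blue) in the 10 genes with at least 1 RPM in the inputs (as in 10.8% of all features) and in the 6 that passed the filter through the pull-downs alone, and the non-crosslinked pull-down (black) lies below its input (grey) in 8 of them.

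Genes that did not reach the filter held few reads. The 22 untested genes with an anticodon name summed to 3.3 and 1.5 reads in crosslinked inputs and 108 and 212 reads in crosslinked pull-downs, against 1.4 (input) and 14.1 (pull-down) without crosslinking. The highest of them, CGC-4-1 and TGC-5-1 to TGC-5-3, had 39.0 reads each in pull-down 2, and their counts differed by at most 1 read in any library. The 73 number-named genes summed to 16.8 and 12.7 reads in crosslinked inputs and 43.6 and 77.3 reads in crosslinked pull-downs, against 2.83 (input) and 1.92 (pull-down) without crosslinking. Of these genes, 67 had at most 2 reads over all 6 libraries. A single gene, tRNA-Ala-30833, held 18.1 and 30.4 of the pull-down reads. Their sum had 0.964 and 0.688 RPM in crosslinked inputs and 2.71 and 4.88 RPM in crosslinked pull-downs, so it too passed the filter through the pull-downs and is given without a test.

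The non-crosslinked pair gives the share of alanine tRNA among reads without irradiation. Of the 16 tested genes, 8 had less in this pull-down than in the input and 8 had more, with log2(RPM + 1) ratios from -1.34 for TGC-2-1 to 0.63 for CGC-2-1. TGC-3-1 had the second lowest ratio, -1.19, and AGC-4-1 and AGC-4-2 shared the second highest, 0.46. The 6 genes with under 1 RPM in the crosslinked inputs all lay on the higher side, and each rested on at most 5.5 reads in the non-crosslinked input. All 8 genes on the lower side had at least 1 RPM in the crosslinked inputs. The AGC sum had a log2 ratio of 0.24 in this pair, and the CGC and TGC sums were lower (-1.12 and -1.08).

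The difference between the crosslinked and the non-crosslinked log2 ratio was tested over all 6 libraries, with the single non-crosslinked libraries assumed to vary like the others. The difference was 3.66 ± 0.88 for all alanine genes, 4.33 ± 0.94 for AGC, 3.38 ± 0.86 for CGC and 3.44 ± 0.89 for TGC. Without pull-down 2 these differences were 2.60, 3.25, 2.35 and 2.36, and without pull-down 1 they were 4.27, 4.95, 3.97 and 4.05. None passed the edgeR test on all libraries, with adjusted p of 0.329 for the alanine sum and 0.33 for each anticodon. Of the 39872 single features, edgeR called 0 (0.00%), while 5431 had p under 0.05 before adjustment. DESeq2 called 8 higher and 147 lower and gave no adjusted p to 33240. At an unadjusted p under 0.05, 9 of the 10 alanine genes with at least 1 RPM in the crosslinked inputs had a higher crosslinked ratio, with differences of 3.20 to 5.01, against 11.6% of all features. With TMM factors it was also 9 of the 10, with differences of 2.64 to 4.46, against 1.54% of all features. The gene that did not reach it was AGC-1-1, which had 13.7 and 7 reads in the non-crosslinked pair. The median difference over all features was 0.56, and it was -0.01 with TMM factors.

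The outcome of that test depended on the tool and on 1 library. DESeq2 called the alanine sum (difference 3.04, adjusted p = 0.0227), the AGC sum (3.71, adjusted p = 0.00476) and the TGC sum (2.81, adjusted p = 0.0492). It called 8 of 39634 features higher in the fit with amino acid sums and 13 of 39664 in that with anticodon sums. No adjusted p was given to 33039 and 33066 of these, nor to 33240 of the 39872 single features. Shares over all features are therefore lower than shares over the features that DESeq2 could call. edgeR called none of the 16 single genes, DESeq2 called 1 (against 0.0201% of all features), and edgeR called 9 when crosslinked pull-down 1 was left out (against 0.117% of all features). All of these genes had at least 1 RPM in the crosslinked inputs. In that last fit only the 2 crosslinked inputs give a spread, so its calls do not reflect the difference between the pull-downs.

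**Figure D3:**
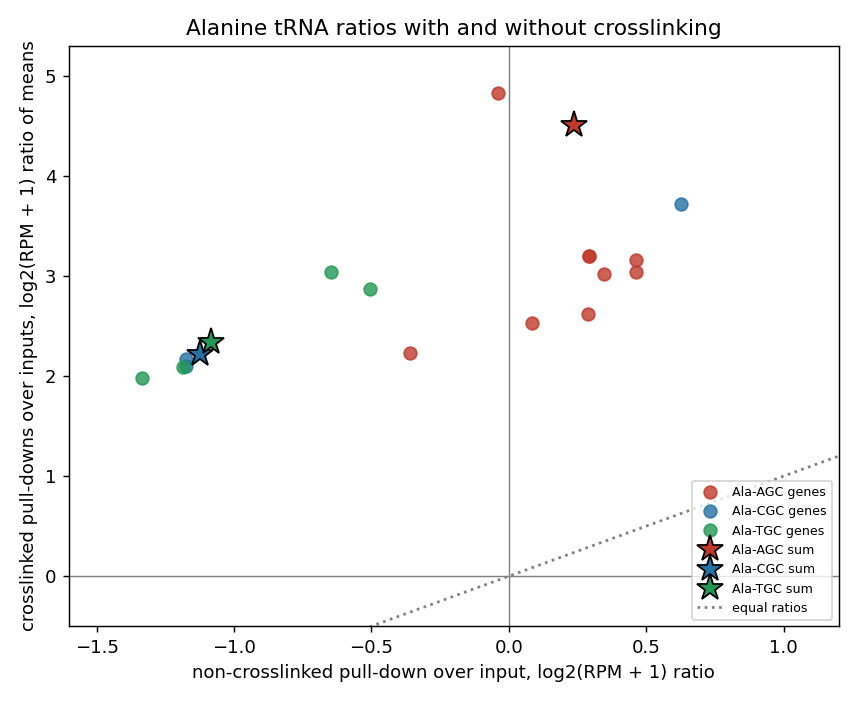
Log2(RPM + 1) ratio of pull-down over input in the crosslinked libraries (means of 2, vertical axis) against the non-crosslinked pair (1 library each, horizontal axis) for the 16 tested alanine tRNA genes (circles) and the anticodon sums (stars). All points lie above the dotted line of equal ratios, but 6 of the circles passed the filter through the crosslinked pull-downs alone and so had to lie high. By edgeR, without the added 1 RPM, the difference of the log2 ratios was below 0 for AGC-4-1 (-0.31) and AGC-7-1 (-0.10) and above 0 for the other genes. The CGC and TGC sums lie at -1.12 and -1.08 on the horizontal axis and the AGC sum at 0.24.

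Alanine tRNAs were then set beside the tRNAs of the other amino acids. Alanine genes gave 18.6 and 19.9% of all tRNA reads in crosslinked inputs and 19.1 and 22.4% in crosslinked pull-downs. These ranges overlap, and the two-sided exact permutation test gave p = 0.667. Without crosslinking the share was 16.4% (input, 95% Wilson interval 15.8 to 17.0%) and 10.5% (pull-down, 10.0 to 11.1%), the lowest of the 6 libraries.

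Among 22 amino acid groups, with selenocysteine and initiator methionine counted apart, 3 had under 1 RPM in the crosslinked inputs and passed the filter through the pull-downs alone. Of the other 19, edgeR called 17 higher, and the alanine log2 ratio of 2.82 was the 17th. The 2 groups not called were aspartate (2.16, adjusted p = 0.0563) and glutamate (1.42, adjusted p = 0.106), which gave 42.0 and 24.9% of the tRNA reads in the crosslinked inputs (means of 2), against 19.3% for alanine. The highest ratios were those of glutamine (7.96) and histidine (7.11). In the non-crosslinked pair, alanine had the lowest log2(RPM + 1) ratio of the 22 groups, -0.94, and aspartate (-0.88) and glutamate (-0.84) were the only other groups below 0. Whether alanine differed from these groups was not tested. Of the 244 tested tRNA genes of other amino acids, 70 had at least 1 RPM in the crosslinked inputs, and 47 of these (67.1%) were called higher, with a median log2 ratio of 2.11.

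**Figure D4:**
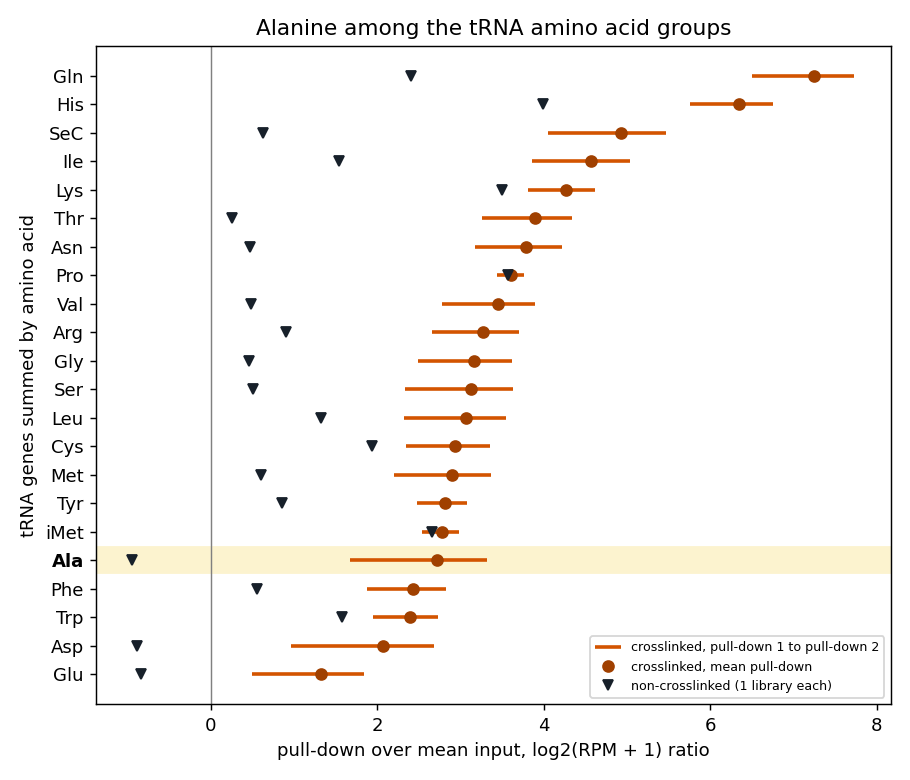
Pull-down over input, as log2(RPM + 1) ratio, for tRNA genes summed by amino acid (22 groups, alanine shaded). Lines span crosslinked pull-down 1 and pull-down 2 over the mean input, circles are their mean and triangles the non-crosslinked pair; alanine has 2.71 with crosslinking and the lowest value, -0.94, without.

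The pattern of the AGC sum over the 6 libraries was compared with that of each other anticodon group by the distance between log2(RPM + 1) values centred on their mean. The 3 nearest of 46 groups were Asn-GTT (distance 0.65), Ile-AAT (0.79) and Thr-AGT (0.97). All asparagine genes together had a mean of 0.919 RPM in the crosslinked inputs, so Asn-GTT passed the filter through its pull-down reads alone. The other alanine groups were farther away, with TGC in place 26 (2.47) and CGC in place 29 (2.60). CGC and TGC lay nearest to each other (0.15), followed by Asp-GTC for both (0.54 from CGC and 0.63 from TGC). These distances rest on 6 libraries, describe them only, and include the sharing of reads between CGC and TGC genes.

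Genes of tRNA transcription, processing, modification and charging were examined through their own transcripts. The list of 23 genes, which also includes the rRNA methyltransferase gene Ftsj3 and Tsen34, of the tRNA splicing endonuclease, held 11 that were tested as pre-mRNA features, with a median log2 ratio of -0.57 against -0.21 over all features. None was called higher and 1 was called lower (against 3.47% of all features), Polr3a, which encodes the largest subunit of RNA polymerase III. Crosslinked inputs had 2.291 and 2.88 RPM of it and crosslinked pull-downs 1.37 and 0.758 RPM, against 2.83 RPM (input) and 2.35 RPM (pull-down) without crosslinking (log2 ratio -1.19 ± 0.28, edgeR adjusted p = 0.0477). Its exons summed to 4.18 and 3.04 RPM in crosslinked inputs and to 3.16 and 3.48 RPM in crosslinked pull-downs, which overlap. For the pre-mRNA of Aars, the alanyl-tRNA synthetase, crosslinked inputs had 8.53 and 5.27 RPM and crosslinked pull-downs 5.03 and 4.99 RPM, against 6.29 RPM (input) and 6.30 RPM (pull-down) without crosslinking (log2 ratio -0.37, edgeR adjusted p = 0.431). The log2 ratios of the 11 genes ran from -1.19 to -0.31. Adat2 and Adat3, which encode the deaminase that makes inosine in the AGC anticodon, were not tested, since their pre-mRNA features had at most 0.228 RPM in any library.

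The authors' deposited table of enrichment ratios listed 15 alanine tRNA genes, of which 13 were also tested here. In the authors' deposited table the median ratio was 26.0 for the 15 alanine genes, 20.9 for all 322 tRNA genes and 1.37 for all 216085 features. AGC-6-1 had the highest alanine value in the authors' deposited table, 209, followed by CGC-2-1 with 163, AGC-7-1 with 79.1 and AGC-3-1 with 75.7. The lowest in the authors' deposited table were TGC-2-1 with 8.64, TGC-3-1 with 9.08, CGC-1-1 with 9.09 and CGC-1-2 with 9.59, the same 4 genes that had the lowest log2 ratios in the test above. This match is not independent, since the ratios belong to the same series and CGC-1-1, CGC-1-2 and TGC-3-1 had nearly the same counts. AGC-12-1, AGC-4-1 and AGC-4-2 were tested here but are not among the 15 listed genes. How the ratio combined the libraries is not given in the sources used here, and no test of it was made.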

How the data were processed

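The authors' values for each of the 6 libraries are, as deposited, an expected count for every feature, with reads of several features split among them, and RPM, which the authors scaled to all reads of the library. A table deposited for the series holds an enrichment ratio per feature. Per the submitters' processing notes, bcl2fastq 2.19, STAR 2.5.2b, bedtools 2.29.0 and the mm10 genome were used; the strand setting, annotation source and removal of PCR duplicates are not given in the sources used here. Without known strand handling, antisense reads cannot be told apart.

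After rounding to whole numbers, counts went into edgeR 4.0.16 (quasi-likelihood test, R 4.3.3), with annotated reads as library sizes, for the 39872 features that averaged 1 RPM or more in the 4 crosslinked libraries. Calls needed a Benjamini-Hochberg adjusted p under 0.05 over the whole table; sums per anticodon or amino acid replaced their genes in tables of their own. The difference of ratios was an interaction term over 6 libraries. Descriptive ratios used log2(RPM + 1), which understates changes of low genes. Depth was 13168593 to 18418166 reads, and 3 reads were taken as the floor. Reads without annotation (6.99 to 14.4%) stayed out of library sizes. The scripts were tested on simulated data that lacked the gap between the pull-downs, so this checks the code and not the calls. Alternatives were other filters, library sizes and pseudocounts, DESeq2 1.42.0, limma 3.58.1, a replicate block and each crosslinked library left out.

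The split of genes by a mean input of 1 RPM was chosen after seeing the data. Genes were named by rule, as the 5 most abundant in crosslinked pull-downs, the 4 highest and 4 lowest edgeR log2 ratios, and the 2 highest and 2 lowest non-crosslinked ratios; AGC-1-1, AGC-2-1, AGC-2-2, AGC-4-1, AGC-7-1, TGC-1-1, TGC-4-1, the untested genes and tRNA-Ala-30833 were added after their values were seen. The members, lists and tests were chosen with earlier results of these data known. tRNA sequences were not used here.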

Additional observations from a re-analysis of the deposited data

How the results depend on the processing

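No result changed direction among those with a call. Without a filter on low values edgeR called 0 of 1683540 single features. No alanine gene was therefore called (0 against 14, of which 8 had at least 1 RPM in the inputs). No sum passed either, with unchanged log2 ratios of 2.82 for alanine (adjusted p = 1), 4.69 for AGC (0.597), 2.33 for CGC, 2.45 for TGC, and 2.26 for the number-named sum, which is given without a test. Far more features were then tested. Replicate numbers are shared between pull-downs and inputs, but the 2 pairs do not establish pairing (correlation of same-numbered deviations 0.11). With the replicate block, TGC was no longer called (log2 ratio 2.21, adjusted p = 0.0551) and 11 single genes were, in place of 14. Both counts include genes that passed the filter through their pull-down reads alone. The share of all features called with the block is not given here, so the 11 are no result about alanine genes. For the difference of ratios, DESeq2 called alanine (3.04), AGC (3.71) and TGC (2.81) and 1 gene, and edgeR without crosslinked pull-down 1 called 9 genes. With 1 library left out, the lone one of its group is assumed to vary like the others; this gave 15 to 20 genes called higher, of which 4 to 10 had at least 1 RPM in the inputs, against 4.89 to 8.02% of all features, and 0 to 9 called for the difference, against 0 to 0.117%. With only the genes of at least 1 RPM in the inputs, an alternative chosen after seeing the data, 8 were called in place of 14. AGC-1-1 was called in 1 of 15 alternatives and TGC-2-1 in 7 of 15. With shares taken over means per gene, the pull-down minus input difference was 16.7 percentage points for AGC and -8.32 for TGC. The difference in the alanine share of tRNA reads lay between -0.16 and 3.08 points with a library left out. Of 353 alternative values for 31 results, 306 kept direction and call or stayed within the replicate spread. Where no construction shows it, the cause was not tested. Depth limits the 6 genes with few input reads, whose ratios have wide intervals.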
